A study of Mus musculus with 6 samples.

Results

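The expressed Zfp zinc finger genes are those mouse genes whose symbol is Zfp followed by a number and whose mean over the 3 input arrays was at least 8 on the log2 scale. They numbered 196, out of 347 such symbols measured and 19938 genes in all. Members were thus chosen by their level in the input, which is a measured value, and that level is given below as a description only. A choice made on the input keeps genes that are bright there and dim in the pulldown and leaves out the opposite kind. RNA came from differentiated cells of 1 immortalized murine podocyte line, grown under permissive conditions with gamma-interferon and differentiated without it, and this is shared by both groups. The 3 input samples were total podocyte RNA, and the 3 Stau2 samples were RNA recovered from cytoplasmic lysate with a Staufen2 antibody on protein G beads. The labels do not say whether the input RNA came from the same cytoplasmic lysate or from whole cells, so a difference between cell compartments and one made by the pulldown cannot be told apart. Each array was labelled from 100 ng of RNA, so a value is a gene's part of the labelled RNA, whatever the yield was. A pulldown with a control antibody was not analysed here, and an immortalized line in culture is a limited model of the podocyte of the kidney.

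Zfp genes mostly encode nuclear proteins with C2H2 zinc fingers, small folds held by a zinc ion that read DNA and sometimes bind RNA. Many carry a KRAB domain, which recruits the corepressor Trim28 and through it the histone methyltransferase Setdb1 and HP1 proteins, and these silence transposable elements and imprinted genes. The KRAB genes multiplied in tandem and lie in clusters of related copies. The symbol also covers unrelated genes, among them the Zfp36 family, whose CCCH fingers bind AU-rich elements of mRNAs and promote their decay. Staufen2 binds double-stranded RNA and belongs to RNA transport granules, and the comparison asks which RNAs form a larger or smaller part of its pulldown than of the input.

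Array medians lay between 6.53 and 6.54, and arrays correlated at 0.998 to 0.999 within a group and at 0.982 to 0.983 between groups. Of 14 podocyte markers measured, 10 had an input mean of at least 8, among them Wt1 (9.57) and Synpo (8.29), while Nphs1 (6.30), Podxl (6.04), Ptpro (6.10) and Tcf21 (5.91) lay below the probe set median of 6.54. No endothelial or immune marker reached 8, while the fibroblast and mesangial markers Acta2 (13.57) and Pdgfrb (11.45) did, as did the tubular Lrp2 (9.36). The fibroblast and mesangial markers Des (6.48) and Thy1 (7.98) did not. Nor did the tubular Aqp2 (6.92), Cubn (7.06), Slc34a1 (6.49) and Umod (5.55). The 4 fibroblast and mesangial markers averaged 9.86 to 9.88 on the input and 9.88 to 9.96 on the pulldown arrays, and the 5 tubular ones 7.06 to 7.10 and 7.28 to 7.30. The mean of the 14 podocyte markers was 9.30 to 9.34 on the input arrays and 9.65 to 9.67 on the pulldown arrays, and the part of these markers in the results was not tested. The labels do not say whether replicates were separate cultures, and a p-value here reflects the scatter among these 6 arrays, part or all of which may be technical. Each sample was RNA of a whole culture, in which fewer cells with an RNA and less RNA per cell cannot be told apart.

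Most expressed Zfp genes made up a larger part of the pulldown than of the input. Of the 196, 136 (69.4%) were higher and 22 (11.2%) lower by limma at an adjusted p under 0.05, which left 38. Among all 19938 genes 31.3% were higher and 17.3% lower, and among the 8919 other genes with an input mean of at least 8 the shares were 48.3% and 32.0%. The median log2 difference of the members was 0.40, a 1.32-fold higher level, with quartiles of 0.08 and 0.62. The median was 0.04 over all genes and 0.09 over the other genes with an input mean of at least 8. After cyclic loess scaling 122 members were higher and 35 lower with a median of 0.29, and the median over all genes was 0.02. Under that scaling the share of higher genes among all calls went from 86.1% to 77.7% in the members and from 64.4% to 52.9% over all genes.

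The differences were alike on the single arrays. Relative to each gene's input mean, the median member stood at 0.36, 0.38 and 0.40 on the 3 pulldown arrays, and at -0.01, -0.01 and 0.02 on the input arrays. All 3 pulldown values lay above all 3 input values in 145 members and below them in 24. The same held for 36.4% and 19.6% of all genes, and for 50.4% and 34.5% of the other genes with an input mean of at least 8. Members differed from each other far more than replicates did. The SD of the difference over the 196 members was 0.41, against a median standard error of 0.044 for 1 member. This spread is not particular to the members. The SD was 0.41 over all genes and 0.57 over the other genes with an input mean of at least 8.

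**Figure D1:**
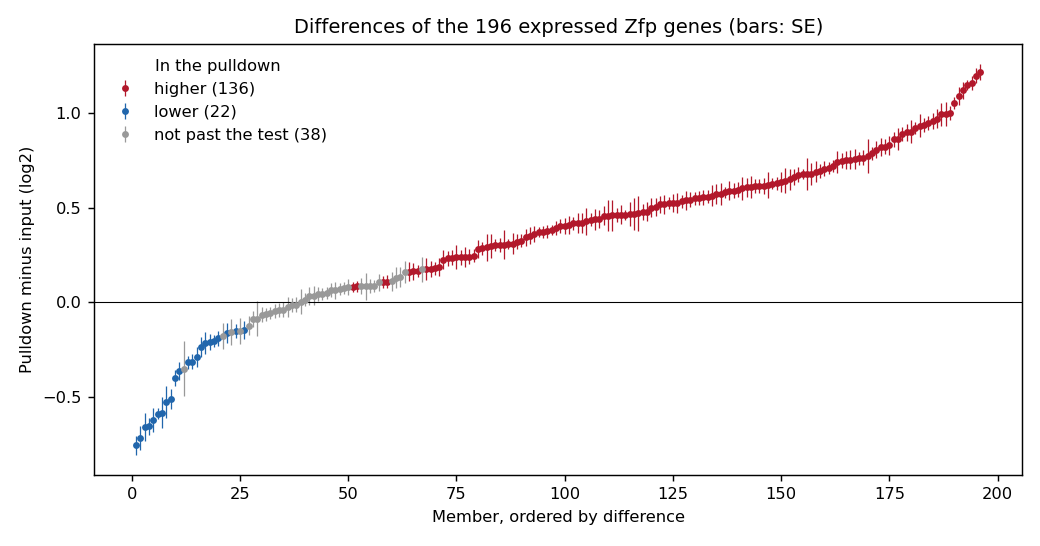
Log2 difference (pulldown minus input, y axis) of each of the 196 expressed Zfp genes, ordered from lowest to highest (x axis), with standard errors as bars and colour for the call at a limma adjusted p under 0.05. The 136 higher members fill most of the range up to 1.22, and the 22 lower ones reach -0.75.

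**Figure D2:**
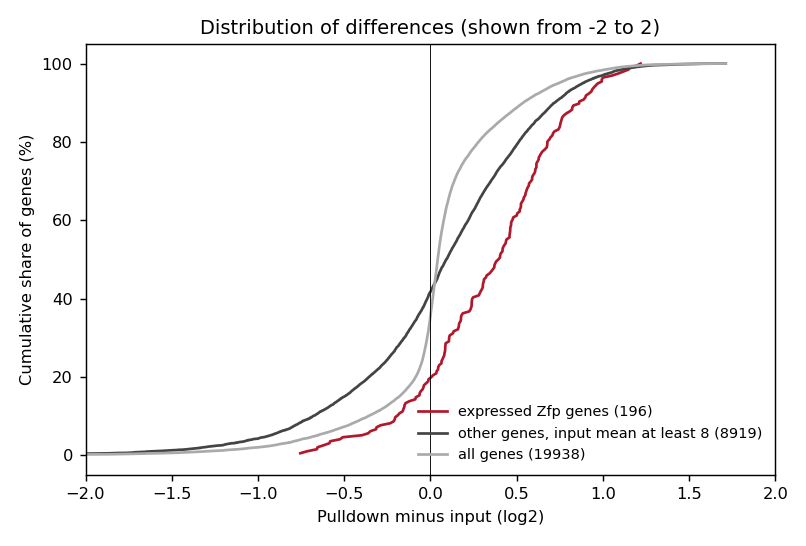
Cumulative share of genes (y axis, %) against the log2 difference (x axis) for the 196 expressed Zfp genes, the 8919 other genes with an input mean of at least 8 and all 19938 genes. The Zfp curve lies to the right of both others over most of the range, with a median of 0.40 against 0.09 and 0.04.

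At the top of the list, 8 members were at least 2-fold higher and none was 2-fold lower. Over all genes 1.67% were at least 2-fold higher and 2.01% lower, and over the other genes with an input mean of at least 8 these shares were 2.97% and 4.24%. Zfp827, which brings the NuRD remodelling complex to telomeres, read 9.66, 9.57 and 9.73 in the input and 10.89, 10.85 and 10.88 in the pulldown. Its pulldown arrays were all more than a full log2 unit above its input arrays, and the difference was 1.22 ± 0.042 (SE), or 2.33-fold (limma adjusted p = 4.8e-07). Zfp445, a KRAB protein that guards imprinted regions, read 9.67, 9.61 and 9.74 in the input and 10.88, 10.84 and 10.89 in the pulldown, a difference of 1.2 ± 0.039. Zfp106, an RNA-binding protein needed by motor neurons, read 10.31, 10.40 and 10.41 against 11.50, 11.58 and 11.51. Its difference was 1.16 ± 0.039, with a wide gap between the groups.

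Zfp462, a large regulator of development that works with histone H3 lysine 9 methyltransferases, was among the brightest of these genes. It read 10.49, 10.53 and 10.52 in the input and 11.64, 11.68 and 11.67 in the pulldown, with the smallest spread of the 10 in the input. The difference of 1.15 ± 0.028 (limma adjusted p = 2.2e-07) thus exceeded its replicate spread many times over. Zfp568, a KRAB repressor of a placental Igf2 transcript, went from 8.86, 8.97 and 8.98 to 10.08, 9.95 and 10.03, a difference of 1.09 ± 0.047. The remaining members of the 10 with the largest positive differences were Zfp507 (1.12 ± 0.047), Zfp407 (1.05 ± 0.031), Zfp790 (1.00 ± 0.037), Zfp236 (0.99 ± 0.064) and Zfp518a (0.99 ± 0.060). In each of these the groups did not overlap, and the limma adjusted p of the 10 lay between 2.2e-07 and 7.2e-06.

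The lower members showed smaller differences. Zfp637 read 9.94, 9.76 and 9.83 in the input and 9.14, 9.03 and 9.10 in the pulldown. All its pulldown arrays were below its input arrays, and the difference was -0.75 ± 0.051, or 1.69-fold lower (limma adjusted p = 9.9e-06). Zfp771 went from 10.13, 10.13 and 10.03 to 9.53, 9.30 and 9.32, a difference of -0.71 ± 0.065. Zfp688 was the brightest of the group and went from 10.77, 10.67 and 10.68 to 10.09, 9.97 and 10.09, with -0.65 ± 0.046. In neither did a pulldown array reach the input. Zfp511 had the tightest values, 9.87, 9.85 and 9.89 against 9.30, 9.30 and 9.25, with -0.59 ± 0.029.

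Zfp593, a small protein of large ribosomal subunit assembly, was lower by more than its spread as well. It read 9.36, 9.09 and 9.24 in the input and 8.78, 8.58 and 8.59 in the pulldown, a difference of -0.58 ± 0.080 (limma adjusted p = 5.2e-04). The other members of the 10 were Zfp580 (-0.66 ± 0.073), Zfp414 (-0.62 ± 0.064), Zfp213 (-0.52 ± 0.083), Zfp524 (-0.51 ± 0.052) and Zfp358 (-0.40 ± 0.042). Their groups did not overlap, and the input values of all 10 were between 8.50 and 10.77 on every array.

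**Figure D3:**
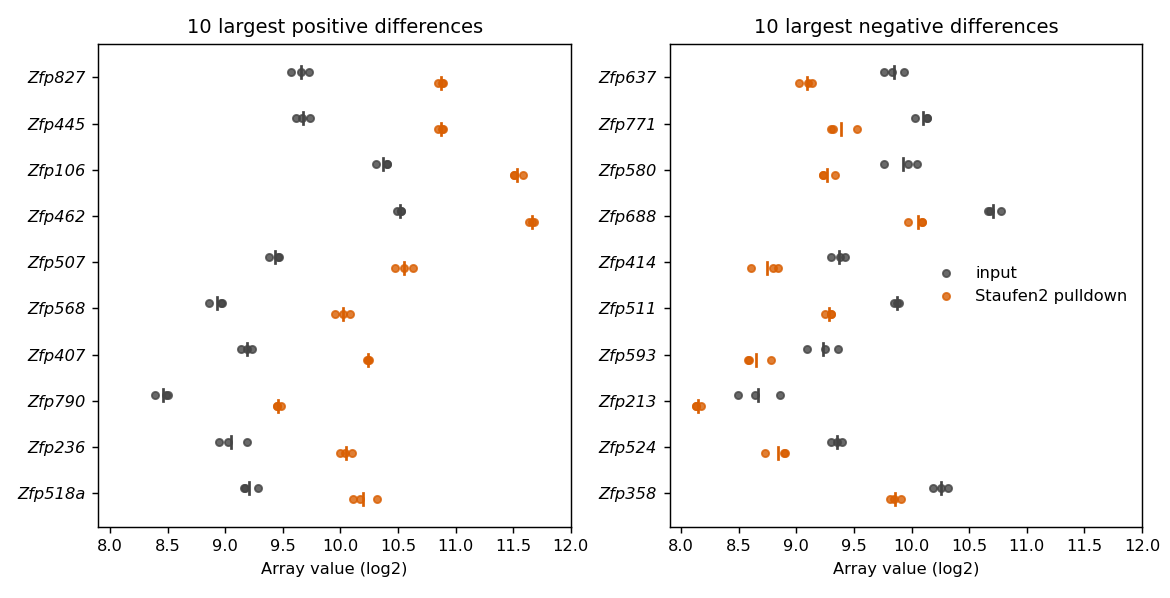
Log2 value (x axis) on each of the 3 input and 3 pulldown arrays for the 10 expressed Zfp genes with the largest positive (left) and the largest negative (right) differences, with short lines at the group means. The groups do not overlap in any of the 20 genes, and the gap is wider on the left, where Zfp827 stands 1.22 higher, than on the right, where Zfp637 differs by -0.75.

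The brightest members did not share a direction. Zfp706 stood at 12.27 ± 0.035 (SD, n = 3) in the input and 12.18 ± 0.074 in the pulldown, and its difference of -0.09 ± 0.043 did not pass (limma adjusted p = 0.14). It passed after cyclic loess at -0.18 (adjusted p = 0.0084) and without Stau2 replicate 2 at -0.13, and a further probe set of the gene stood at 0.06 without passing. Zfp207, a kinetochore and spindle factor also known as BuGZ, read 11.70, 11.74 and 11.77 in the input and 11.50, 11.62 and 11.52 in the pulldown. It was lower, at -0.19 ± 0.041 (adjusted p = 0.0059), without overlap. Zfp664 read 11.41, 11.43 and 11.39 against 11.97, 12.06 and 12.08 and was higher by 0.63 ± 0.036. A dimmer probe set of the same gene was higher by only 0.26.

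By level, 68 of 98 members with an input mean from 8 to 9 were higher and 7 lower, 43 of 60 from 9 to 10 were higher and 9 lower, and 25 of 38 at 10 or above were higher and 6 lower. Among other genes in the same ranges the higher shares were 47.7%, 51.4% and 46.9% and the lower shares 26.4%, 29.2% and 35.9%. The rank correlation of difference with input level across the 196 members was 0.09, and -0.12 across the other coding genes with an input mean of at least 8. The 3 members whose differences lay closest to 0 were Zfp971 (0.00 ± 0.065), Zfp639 (-0.01 ± 0.041) and Zfp35 (-0.01 ± 0.035). Zfp639 passed after cyclic loess, at -0.12 (adjusted p = 0.029).

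Just inside the threshold of 8 were Zfp612, Zfp867 and Zfp787, with input means of 8.02, 8.02 and 8.03 and differences of 0.43, 0.33 and -0.23. Just outside were Zfp53, Zfp943 and Zfp628, with input means of 7.999, 7.97 and 7.97 and differences of 0.43, 0.06 and -0.14. Among all 151 Zfp genes under the threshold 76 were higher (50.3%), 6 lower (4.0%) and 69 did not pass, with a median difference of 0.14. Over all genes, bright and dim, 31.3% were higher and 17.3% lower, with a median of 0.04. Many of these are dim, with a median input level of 6.82, where signal can be background.

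The following sets of members were drawn up by described role after their values had been seen, and serve as description. Of 4 KRAB members with well-described targets, 3 were higher and 1 lower. The shares were 69.4% and 11.2% over all members and 31.3% and 17.3% over all genes. Among other genes with an input mean of at least 8 they were 48.3% and 32.0%. Both imprint guardians were bright but stood apart. Zfp57 read 10.71, 10.75 and 10.80 in the input and 10.48, 10.62 and 10.68 in the pulldown, a small difference of -0.16 ± 0.055 (limma adjusted p = 0.044), beside the 1.2 of Zfp445. The call of Zfp57 ended against a 1.2-fold change, with all probe sets in the fit, with the unmoderated statistic and without input replicate 1, 2 or 3 or Stau2 replicate 1 or 2, at values of -0.10 to -0.18. Zfp809, which silences murine leukaemia viruses through their primer-binding site, read 10.20, 10.21 and 10.24 against 10.50, 10.51 and 10.61 and was higher by 0.32 ± 0.037.

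The CCCH genes of mRNA decay are not DNA-binding factors of the C2H2 kind, and their differences were small and did not share a direction. Zfp36, known as tristetraprolin, read 9.63, 9.73 and 9.80 in the input and 9.63, 9.63 and 9.53 in the pulldown. Zfp36l1 read 10.16, 10.24 and 10.41 against 10.07, 10.20 and 10.09. In both the groups overlapped or touched, and the differences of -0.12 ± 0.051 and -0.15 ± 0.068 did not pass (limma adjusted p = 0.084 and 0.11). Both passed after cyclic loess, at -0.24 and -0.26, and Zfp36 also passed without input replicate 1, at -0.17. Zfp36l2 was higher by 0.24 ± 0.038, from 11.12, 11.09 and 11.21 to 11.37, 11.40 and 11.34.

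Members with roles in RNA biology and the ribosome went both ways, with 4 of 8 higher and 2 lower, shares close to the 48.3% higher and 32.0% lower among other genes with an input mean of at least 8. Besides Zfp106, Zfp638, which acts with the HUSH complex on unintegrated retroviral DNA and also binds RNA, was higher by 0.70 ± 0.037. Zfp622, a maturation factor of the large ribosomal subunit, was higher by 0.55 ± 0.034, whereas Zfp593 of the same pathway was lower. Zfp346, known as JAZ, is like Staufen2 a double-stranded RNA-binding protein, and read 10.39, 10.38 and 10.51 against 10.66, 10.68 and 10.66. Its mRNA was higher by 0.24 ± 0.039, a small difference without overlap. Zfp326, a subunit of the DBIRD complex that couples transcription and splicing, was lower at -0.21 ± 0.042. Zfp598, the ligase that marks collided ribosomes (0.13, adjusted p = 0.064), and the RNA-binding Zfp385a (0.13, adjusted p = 0.090) did not pass, but both passed without input replicate 3, at 0.17, and Zfp598 also with the filter on low values.

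All 7 members of a set of factors in or linked to chromatin complexes were higher, with a median of 0.72. Beside this, 69.4% of all members and 48.3% of other genes at this level were higher. Their median span was 54.1 kb against 16.7 kb for all members. Their median difference lay close to the 0.75 of members spanning 50 kb or more, of which 92.0% were higher. Most of the set, among them Zfp827 and Zfp532, belongs to that class, so this closeness is partly built in, and a link to span was not tested. Zfp687, Zfp592 and Zfp532 form the Z3 complex with Zmynd8 and were higher by 0.54 ± 0.050, 0.75 ± 0.049 and 0.75 ± 0.041. Zfp644, a partner of the G9a methyltransferase complex, was higher by 0.67 ± 0.039 and the SUMO ligase Zfp451 by 0.72 ± 0.032. Zfp410, an activator of Chd4, was higher by only 0.24 ± 0.039.

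Of 13 members known from development or growth control, 11 were higher (84.6%) and none passed as lower, with a median of 0.79. Their median span was 95.6 kb, and these values are near those of members spanning 50 kb or more (92.0% higher, median 0.75). Most of the set, among them Zfp521 and Zfp609, belongs to that class, so this closeness is partly built in. A link to span was not tested, and 48.3% of other genes at this level were higher. Zfp521, a regulator of progenitors in bone, fat and blood, read 10.60, 10.61 and 10.69 in the input and 11.54, 11.56 and 11.55 in the pulldown. The groups were far apart, and the difference was 0.92 ± 0.032. Zfp609 and its paralog Zfp608 were higher by 0.97 ± 0.051 and 0.61 ± 0.038, Zfp516, a factor of brown fat, by 0.89 ± 0.038 and the breast cancer gene Zfp217 by 0.86 ± 0.060. The related factors Zfp148 and Zfp281 were higher by 0.79 ± 0.035 and 0.52 ± 0.050. The paralogs Zfp703 and Zfp503, cofactors of the NET family, did not pass, at 0.04 ± 0.038 and 0.07 ± 0.032 (limma adjusted p = 0.39 and 0.12).

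The genes through which KRAB proteins act were taken from a list of the repression machinery. Among 25 measured genes 21 were higher and 1 lower, with a median of 0.55, beside 31.3% higher and 17.3% lower among all genes. Most of the list was bright, and the other genes with an input mean of at least 8 gave 48.3% and 32.0%. The median span of the list was 38.3 kb, and of other coding genes at that level spanning 20 to 50 kb 54.3% were higher. Trim28, the corepressor itself, read 11.28, 11.20 and 11.25 in the input and 11.28, 11.18 and 11.29 in the pulldown. Its groups overlapped, and the difference of 0.01 ± 0.039 did not pass (limma adjusted p = 0.93). Setdb1, the methyltransferase it recruits, went from 9.58, 9.59 and 9.63 to 10.31, 10.31 and 10.31. It was higher by 0.71 ± 0.027, without overlap. The remaining genes named by the smallest p were Ehmt1 (0.87 ± 0.032) of histone H3 lysine 9 methylation, Chd3 (0.79 ± 0.030) of the NuRD complex, the maintenance DNA methyltransferase Dnmt1 (0.74 ± 0.025) and the remodeller Smarcad1 (0.72 ± 0.029). The lower gene was the deacetylase Hdac1, at -0.13 ± 0.030, and Dnmt3b and Suv39h2 were dim in the input, at 6.06 and 5.99. The mRNA of Stau2 did not pass (-0.02 ± 0.027, adjusted p = 0.52), and passed after cyclic loess at -0.13.

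Differences were larger in genes of longer genomic span, a measure that includes introns and so is only a coarse measure of RNA size. Across the 196 members Spearman's rank correlation was 0.49, and it was 0.48, 0.49 and 0.49 on the single pulldown arrays, which share the input. Across 8799 other coding genes with an input mean of at least 8 it was 0.53. Genes are not independent replicates, and no p is given. Of 41 members spanning under 10 kb, 14 were higher and 13 lower, with a median of 0.04. Of 25 spanning 50 kb or more, 23 were higher and 1 lower, with a median of 0.75.

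Within each span class the members' median lay above that of other coding genes of the same input range. It was 0.04 against -0.28 under 10 kb, 0.40 against -0.04 from 10 to 20 kb, 0.46 against 0.16 from 20 to 50 kb and 0.75 against 0.42 at 50 kb or more. The share of higher genes, members against other coding genes, was 34.1% against 17.9% under 10 kb and 72.5% against 34.6% from 10 to 20 kb. It was 80.3% against 54.3% from 20 to 50 kb and 92.0% against 75.9% at 50 kb or more. The share of lower genes was 31.7% against 61.6% under 10 kb and 7.2% against 41.9% from 10 to 20 kb. In the 2 longer classes it was 4.9% against 23.5% and 4.0% against 10.4%. These are descriptions, and whether the difference between the classes of genes exceeds chance was not tested. Some members went against the trend. Zfp280c, with 53.0 kb, was the lower member among the long genes, and Zfp277, with 131 kb, stood at -0.18 ± 0.069 and did not pass (limma adjusted p = 0.067). Among the short genes, Zfp646 (9.08 kb) was higher by 0.90 ± 0.045 and Zfp281 (5.49 kb) by 0.52. These were chosen after their values were seen.

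**Figure D4:**
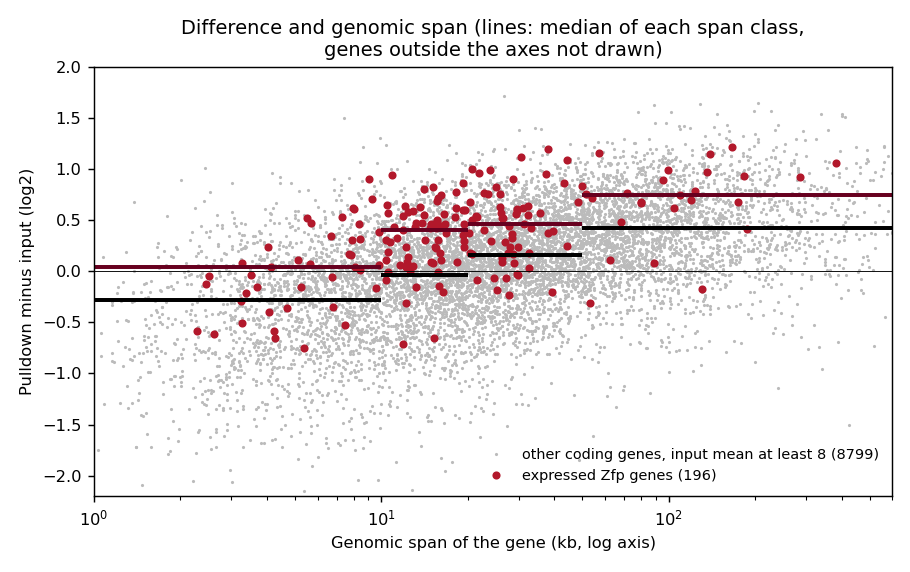
Log2 difference (y axis) against the genomic span of the gene in kb (x axis, log scale) for the 196 expressed Zfp genes and 8799 other coding genes with an input mean of at least 8, with horizontal lines at the medians of 4 span classes. The Zfp medians run from 0.04 under 10 kb to 0.75 at 50 kb or more, each above the line of the other genes.

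Members were then taken by their position among other Zfp genes. With no numbered Zfp gene among the 5 protein-coding neighbours on either side, 66 of 90 members were higher and 9 lower, with a median of 0.42. With 1 to 3 such neighbours 39 of 58 were higher and 9 lower, with a median of 0.35. With 4 or more such neighbours 31 of 48 were higher and 4 lower, with a median of 0.46. Over all members 69.4% were higher and 11.2% lower, and over all genes 31.3% and 17.3%. Among other genes with an input mean of at least 8 the shares were 48.3% and 32.0%. The rank correlation with the number of Zfp neighbours was -0.02.

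Single runs of neighbouring Zfp genes differed in their values. Runs were read from the gene order of the mouse reference, allowing up to 3 other coding genes in between, and 4 runs held 5 or more members. In the run with Zfp568, 7 of 8 members were higher, from Zfp30 (0.28 ± 0.048) through Zfp146 (0.71 ± 0.038) and Zfp790 to Zfp568, while Zfp566 did not pass (-0.16 ± 0.069). In the run with Zfp948 (0.76 ± 0.051), 7 of 8 were higher as well, and in that with Zfp729a 4 of 6. The higher share was 69.4% over all members, 31.3% over all genes and 48.3% over other genes with an input mean of at least 8. The lower shares were 11.2%, 17.3% and 32.0%. The run with Zfp771 had no higher member, 2 lower ones, Zfp771 and Zfp688, and 4 that did not pass, between -0.06 (Zfp764) and 0.11 (Zfp553). The median span of its members was 4.7 kb, against 13.2 to 22.1 kb in the other 3 runs. Of other coding genes with an input mean of at least 8 spanning under 10 kb, 17.9% were higher and 61.6% lower. By limma at an unadjusted p under 0.05, 1 member of this run, Zfp553, was higher.

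**Figure D5:**
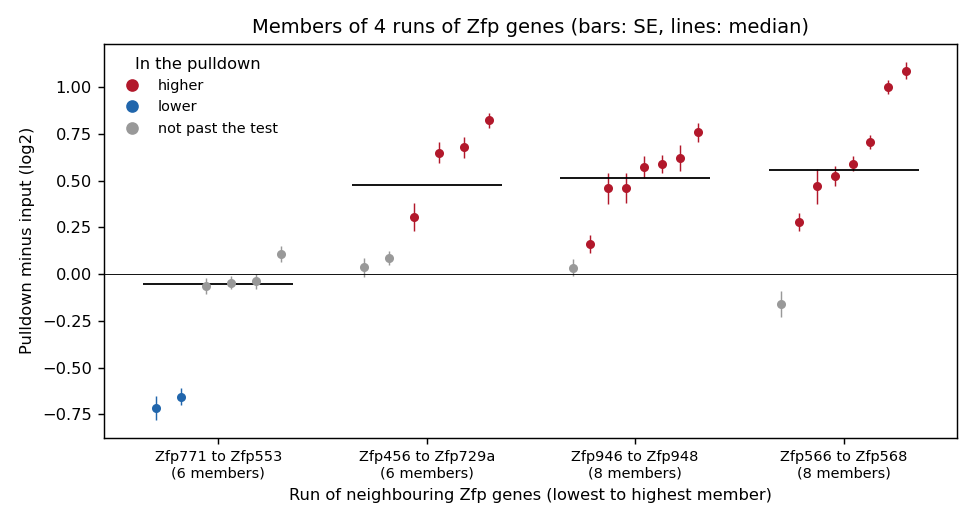
Log2 difference (y axis) of each member in 4 runs of neighbouring Zfp genes (x axis, each named by its lowest and highest member), with standard errors as bars, lines at the run medians and colour for the call. The run from Zfp771 to Zfp553 lies at or below 0.11, while the other 3 have medians of 0.48, 0.52 and 0.56.

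Close relatives did not always move alike. Zfp280b stood at 10.34 ± 0.057 (SD, n = 3) in the input and 10.91 ± 0.090 in the pulldown, and was higher by 0.57 ± 0.052. Zfp280c went from 9.76, 9.77 and 9.77 to 9.40, 9.45 and 9.51 and was lower, at -0.32 ± 0.033. Zfp280d was higher by only 0.08 ± 0.029 (limma adjusted p = 0.046). The neighbouring copies Zfp729a and Zfp729b were higher by 0.82 ± 0.040 and 0.68 ± 0.057. Tandem KRAB genes have near-identical stretches, so probe sets of such copies can share signal and their single values are uncertain.

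For 7 members a further probe set with the same single symbol was on the array. In 5 of these both probe sets were higher, in Zfp706 neither passed, and in Zfp825 the brighter was higher (0.48) and the other did not pass (0.17). For Zfp407 both differences were large, 1.05 and 0.97, whereas for Zfp60 they were 0.18 and 0.74.

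Other zinc finger families with an input mean of at least 8, picked by symbol after the data were seen, stood beside the Zfp genes as follows. Of 29 Zbtb genes, which pair zinc fingers with a BTB domain, 26 were higher and 1 lower, with a median of 0.50. Of 17 Klf and Sp genes, which bind GC-rich promoters, 13 were higher and 1 lower, with a median of 0.28. Of 12 Zscan and Zkscan genes 6 were higher and 3 lower, with a median of 0.21. Among the other genes at this level 48.3% were higher and 32.0% lower, and the Zscan and Zkscan shares lie near these. The Zfp median of 0.40 lies within the range of the 3 families, and a difference between the families was not tested.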

How the data were processed

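Per the submitters' processing notes the authors made the deposited log2 expression values with RMA, and limma is also named; their versions and the genome build are not given in the sources used here. As usually run, RMA equalizes the arrays' distributions, and a difference is then relative to other RNAs. Of 35556 probe sets, 21789 had 1 gene symbol in the platform annotation, 1621 had several and 12146 had none listed. The brightest single-symbol probe set of each gene gave 19938 genes, of which 19856 matched the RefSeq gene table (GRCm38.p6) by Entrez identifier. That table gave gene span and neighbours, and no coordinates are printed because the array annotation names no build.

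Pulldown was compared with input across all genes with limma 3.58.1 in R 4.3.3 (moderated, 2-sided, no covariates, Benjamini-Hochberg over all genes, threshold 0.05); ± after a difference is the moderated SE. An exact permutation test of 3 against 3 arrays cannot go below 0.10. The procedure was tested on simulated data. The members and lists were chosen with earlier results of these data known. Named were the 10 largest differences each way among called members without overlap, the 3 brightest, the 3 nearest 0, 3 on each side of the threshold, the Zfp36 family, 5 genes of the repression machinery with Trim28, and Stau2. Role sets, single runs and other families were chosen after values were seen. A planned sorting by zinc finger number, KRAB signature and protein length was not run because no protein table was used here, and named genes by those rules were dropped. Same-numbered arrays did not deviate together (correlations of 0.02, 0.11 and -0.06), so numbers were taken as names. Arrays have no read depth, and their number limits the precision. Figures were drawn with matplotlib 3.10.9.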

Additional observations from a re-analysis of the deposited data

How the results depend on the processing

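Under 16 other settings of the fit no member had a call in the opposite direction. Members higher numbered 127 to 140 and lower 19 to 24, outside cyclic loess (122 and 35, median 0.295) and a test against a 1.2-fold change (98 and 10). That test called 3034 genes higher and 1822 lower in all, and 0 of the repression machinery lower, since Hdac1 no longer passed. Of the 67 genes named by rule or role, 11 lost their call under it. Called members with a smaller fold than 1.2 cannot pass it, such as Zfp207 (1.14-fold), Zfp326 (1.15), Zfp36l2, Zfp346 and Zfp410 (1.18 each). With the replicate block, counts were 136 and 22, with 134 and 21 of the same members. Leaving out 1 array gave 128 to 135 higher, 19 to 22 lower and medians of 0.374 to 0.402. At an input mean of at least 7 the median was 0.361 (177 of 261 higher, 26 lower), and at 9 it was 0.451 (68 of 98 higher, 15 lower). For every numbered Zfp gene it was 0.239 (212 of 347 higher, 28 lower). In the main fit 31.3% of all genes were higher and 17.3% lower. For the other genes with an input mean of at least 8 these shares were 48.3% and 32.0%. With the pulldown mean in place of the input mean, an alternative chosen after seeing the data, the median was 0.427 (157 of 216 higher, 20 lower). That choice takes in genes for being high in the pulldown and drops genes that are low there. A shift to higher values is therefore built in, and nothing is concluded from it. The cause of the other shifts was not tested, beyond the number of genes each threshold takes in. Signal near the probe set median of 6.54 can be background, which limits what can be read from dim Zfp genes.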
